A study of Mus musculus with 13 samples.

Results

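The Src family kinases and their inhibitor Csk were followed in brain RNA of the cuprizone mouse model. The members were chosen by gene name in the deposited annotation and are Src, Fyn, Yes1, Lyn, Fgr, Lck and Csk, 7 of the 55401 genes listed. Each of these names belonged to 1 gene, and all 7 were among the 14985 genes that passed the filter on low counts. The 13 libraries were made from snap-frozen brain hemispheres of male C57BL/6J mice. The 4 libraries of the cuprizone group (CPZ) came from mice fed chow with 0.3% cuprizone, a copper chelator that injures oligodendrocytes, and collected after 4 weeks. The 4 libraries of the recovery group (RCV) came from mice fed the same chow for 4 weeks and control chow for the next 2 weeks, and the 5 libraries of the control group (CTL) from mice fed control chow for 6 weeks. CPZ mice were therefore collected 2 weeks before the others, and an effect of the diet and an effect of the time of collection cannot be told apart. The age on the labels is 6 to 8 weeks, whereas the study's methods give an older age.

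Src family kinases are tyrosine kinases that sit on the inner side of the cell membrane and pass on signals from receptors that lack a kinase of their own. Csk phosphorylates a tyrosine in their tail, which closes the kinase, and phosphatases such as CD45 remove this phosphate again. Src and Yes1 are used by most cells, Fyn is the family member best known from oligodendrocytes and myelination, Lyn and Fgr are known from microglia and other myeloid cells, and Lck is known from T cells.

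Libraries held 4605100 to 8197289 estimated counts, with a median of 6723619. Mitochondrial genes took 3.76% to 5.07% of the counts. The summed TPM (a level per transcript length and library size) of 10 neuron markers was 4731 to 6458 over all libraries. All 15 microglia markers were higher in CPZ than in CTL, with a median log2 fold change of 2.57, and 14 of 15 markers of mature oligodendrocytes were lower, with a median of -1.51. Of 8 astrocyte markers, 5 were higher in CPZ than in CTL and 2 in RCV than in CTL, and Gfap, the intermediate filament of reactive astrocytes, had log2 fold changes of 2.43 (adjusted p = 5.29e-07 by edgeR) and 1.80. In bulk tissue, more cells of a type and more RNA per cell cannot be told apart.

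Of the 7 members, 2 were higher in CPZ than in CTL, Lyn and Fgr, and none was lower, by the quasi-likelihood test of edgeR, with p-values adjusted over all genes tested by the Benjamini-Hochberg method. Over all 14985 genes tested, 7.66% were called higher and 2.50% lower in this comparison. The same members, Lyn and Fgr, were higher in CPZ than in RCV, where 5.13% of all genes were called higher and 1.88% lower. Between RCV and CTL, 0 of the 7 members passed the threshold, and 0.374% of all genes did in either direction. There, Lyn and Fgr were the 2 members with an unadjusted p under 0.05, and DESeq2 and limma-voom also called 0 members. The median log2 fold change of the 7 members was 0.057, -0.033 and 0.092 in the 3 comparisons, beside -0.020, -0.0066 and -0.0044 over all genes tested. The 3 comparisons share libraries, so their values are not independent of each other.

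**Figure D1:**
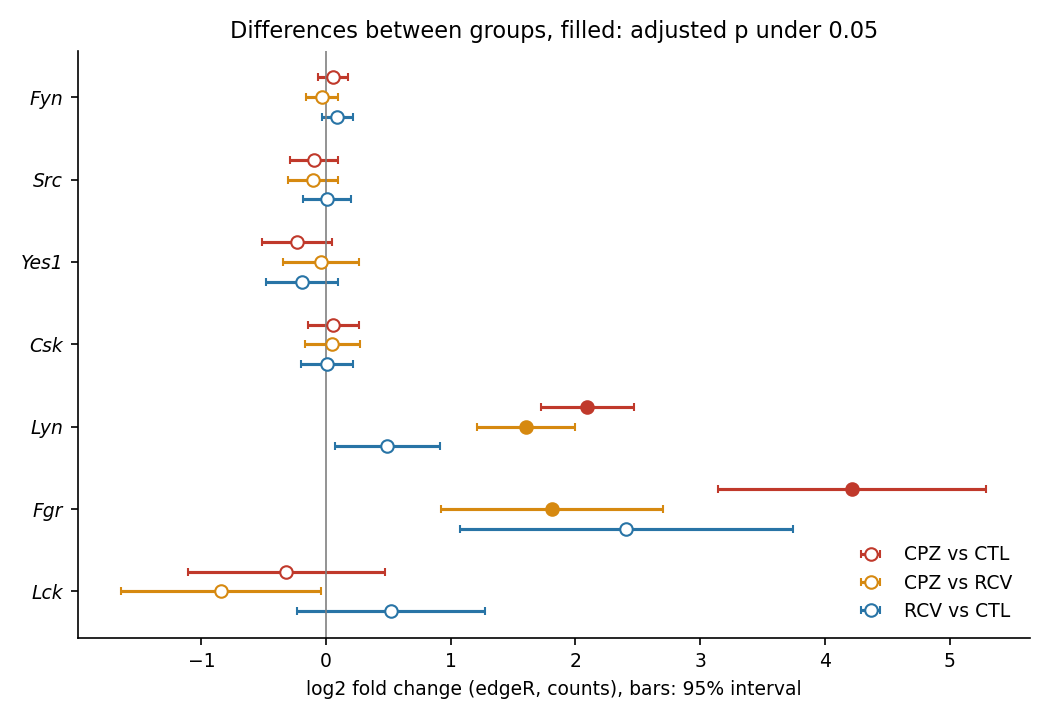
Log2 fold change of each member in the 3 comparisons (x axis, from counts), with the 95% interval as a bar, and a filled point where the adjusted p is under 0.05. Lyn and Fgr stand to the right of 0 in all 3 comparisons and are filled in both that involve CPZ, while the points of Fyn, Src, Yes1 and Csk lie between -0.23 and 0.092.

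Lyn is the kinase that phosphorylates the signalling motifs of many activating and inhibitory receptors of myeloid cells. In CTL replicates 1 to 5, Lyn had 46, 48, 48, 48.6 and 38 counts. In CPZ replicates 1 to 4 it had 287, 276, 151 and 192 counts, and in RCV replicates 1 to 4 it had 75, 53, 46 and 52 counts. As CPM (counts scaled by effective library size), these were 6.24 to 7.47 in CTL, 20.9 to 41.2 in CPZ and 8.56 to 11.2 in RCV. No library of one group lay within the range of another. The share of all genes whose groups separate in this way was not counted, here or for the members below. How unusual such a separation is can therefore not be judged.

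The log2 fold change of Lyn between CPZ and CTL was 2.09 ± 0.18 (SE, adjusted p = 1.18e-06), a level 4.27-fold higher, with a 95% interval of 3.30 to 5.52. By p-value, Lyn stood at rank 40 of 14985 genes in this comparison. Between CPZ and RCV the log2 fold change was 1.60 ± 0.18 (SE, adjusted p = 0.000251), and Lyn stood at rank 11. Between RCV and CTL it was 0.49 ± 0.20 (SE, adjusted p = 0.646), which did not pass. Lyn was called in both comparisons with CPZ under all 23 alternative settings, with log2 fold changes between 1.80 and 2.24 against CTL and between 1.42 and 1.75 against RCV.

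Fgr is a close relative of Lyn that is made mainly by myeloid cells. In CTL replicates 1 to 5, Fgr had 0, 3, 1, 2 and 1 counts. In CPZ replicates 1 to 4 it had 47, 34, 24 and 25 counts, and in RCV replicates 1 to 4 it had 5, 14, 3 and 6 counts. As CPM, the CTL libraries (0 to 0.449), the RCV libraries (0.576 to 2.26) and the CPZ libraries (3.22 to 6.75) did not overlap, although Fgr in CTL lay at the edge of what these libraries can count. Fgr passed the filter on low counts only through the CPZ libraries, in which it was high. The count of 0 in CTL replicate 1 allows a level of up to 0.407 CPM.

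Summed over libraries, Fgr had 130 counts in CPZ, 28 in RCV and 7 in CTL. Relative to the summed library totals, the level in CPZ was 20.3 times that in CTL, with an exact 95% interval of 9.57 to 51.4 that covers counting error only. The ratio of RCV to CTL was 5.63 (2.40 to 15.3), and that of CPZ to RCV was 3.60 (2.38 to 5.63). In the fit, the log2 fold change of Fgr was 4.22 ± 0.51 between CPZ and CTL (SE, adjusted p = 2.64e-05) and 1.81 ± 0.42 between CPZ and RCV (SE, adjusted p = 0.0141). It was 2.41 ± 0.63 between RCV and CTL (SE, adjusted p = 0.169), which did not pass. With so few counts in CTL, the fitted values against CTL depend on the prior count of the fit, which was not varied. Over the alternative settings, the values for CPZ ran from 1.70, with limma on log2(TPM + 1), to 4.65, without CTL replicate 2. Those for RCV ran from 0.56 to 2.84. The call between CPZ and RCV was lost without CPZ replicate 1 (log2 fold change 1.54, adjusted p = 0.0658) and without RCV replicate 1 (1.60, adjusted p = 0.0624).

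Neither gene was called between RCV and CTL. As a description, the difference of RCV from CTL can be given as a part of that of CPZ from CTL, on the log2-CPM scale. For Lyn this part was 0.233 ± 0.099 (SD, n = 4), from 0.137 in RCV replicate 2 to 0.328 in RCV replicate 4. For Fgr it was 0.468 ± 0.219 (SD, n = 4), from 0.259 in RCV replicate 3 to 0.747 in RCV replicate 2, a value that depends on the prior count through the CTL libraries. The difference between both kinases in this measure was not tested.

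**Figure D2:**
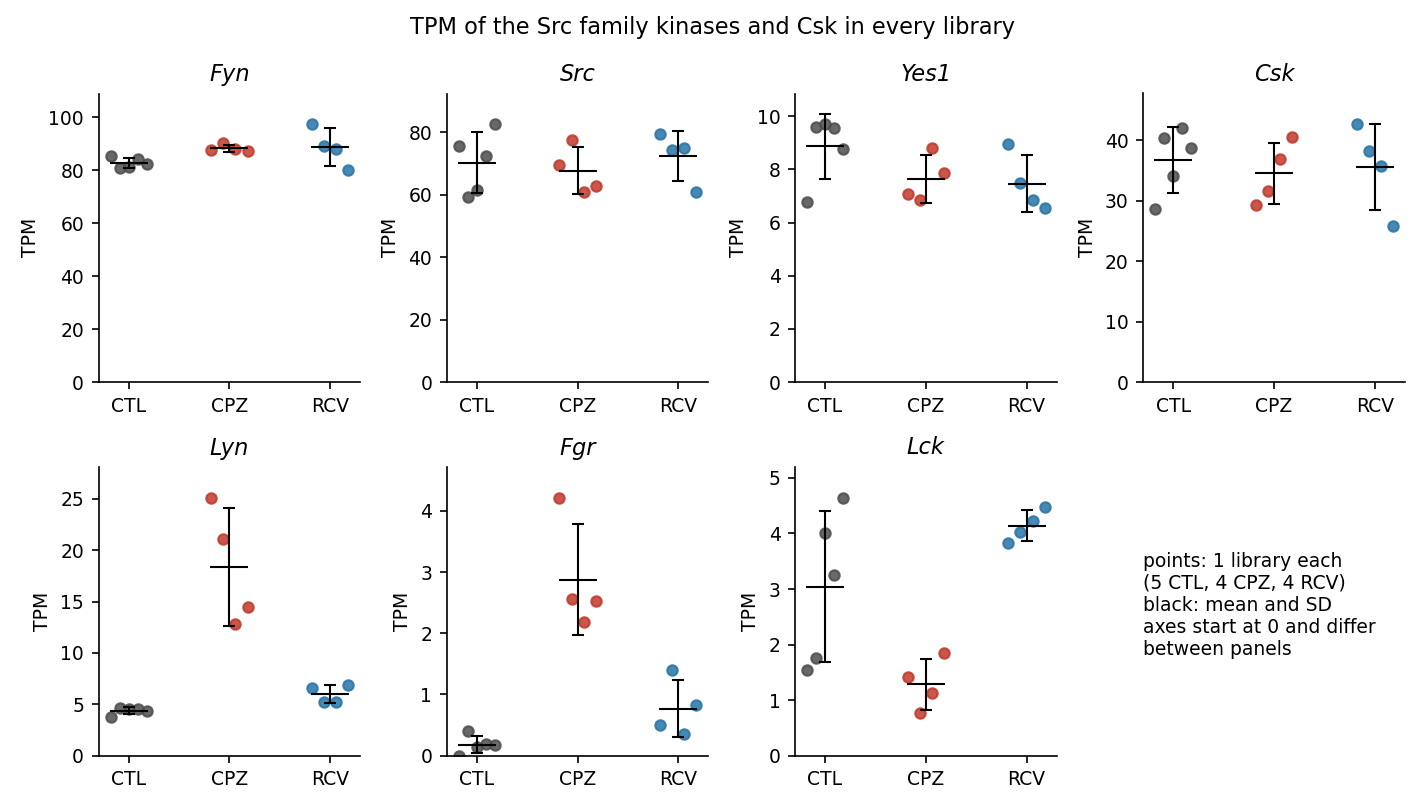
TPM of the 7 members (y axis of each panel, starting at 0) in the 5 CTL, 4 CPZ and 4 RCV libraries, with 1 point per library and the mean and SD in black. Lyn and Fgr have their highest points in CPZ, Src, Yes1 and Csk have overlapping points in the 3 groups, Fyn lies between 80.0 and 97.3 in all libraries, and Lck has its lowest points in CPZ on this scale.

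As a sum, the microglia markers ranked the groups as Lyn and Fgr did, with CTL lowest and CPZ highest. The summed TPM of the 15 markers was 557 to 680 in CTL, 2260 to 4800 in CPZ and 918 to 1317 in RCV, and all of them were detected in every library. CPZ replicate 1 had a marker sum of 4800 TPM and a Lyn level of 41.2 CPM, CPZ replicate 2 had 4348 TPM and 33.5 CPM, CPZ replicate 4 had 2767 TPM and 24.7 CPM, and CPZ replicate 3 had 2260 TPM and 20.9 CPM. These 4 libraries ranked in the same order by the markers and by Lyn, whereas Fgr was higher in CPZ replicate 3 (3.32 CPM) than in CPZ replicate 4 (3.22 CPM). In the other groups the order was not shared. RCV replicate 2 had the highest marker sum of its group, 1317 TPM, and the lowest Lyn, 8.56 CPM, and CTL replicate 3 had the lowest marker sum, 557 TPM, and the second highest Lyn, 7.36 CPM. The part of the microglia markers in the differences of Lyn and Fgr was not tested.

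Between CPZ and CTL, 11 of the 15 microglia markers had a larger log2 fold change than Lyn and 4 had a smaller one, over a range from 0.97 for P2ry12, a receptor of resting microglia, to 3.72 for Cd68, a lysosomal protein of phagocytes. The fitted value of Fgr lay above all 15 markers in this comparison, a rank that rests on 0 to 3 counts in CTL. With limma on TPM, the value of Fgr was smaller with either pseudocount. Between RCV and CTL, the markers had a median of 0.74, and again 11 of them lay above Lyn and none above Fgr. Between CPZ and RCV, with a median of 1.69, 10 markers lay above Lyn and 4 above Fgr.

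**Figure D3:**
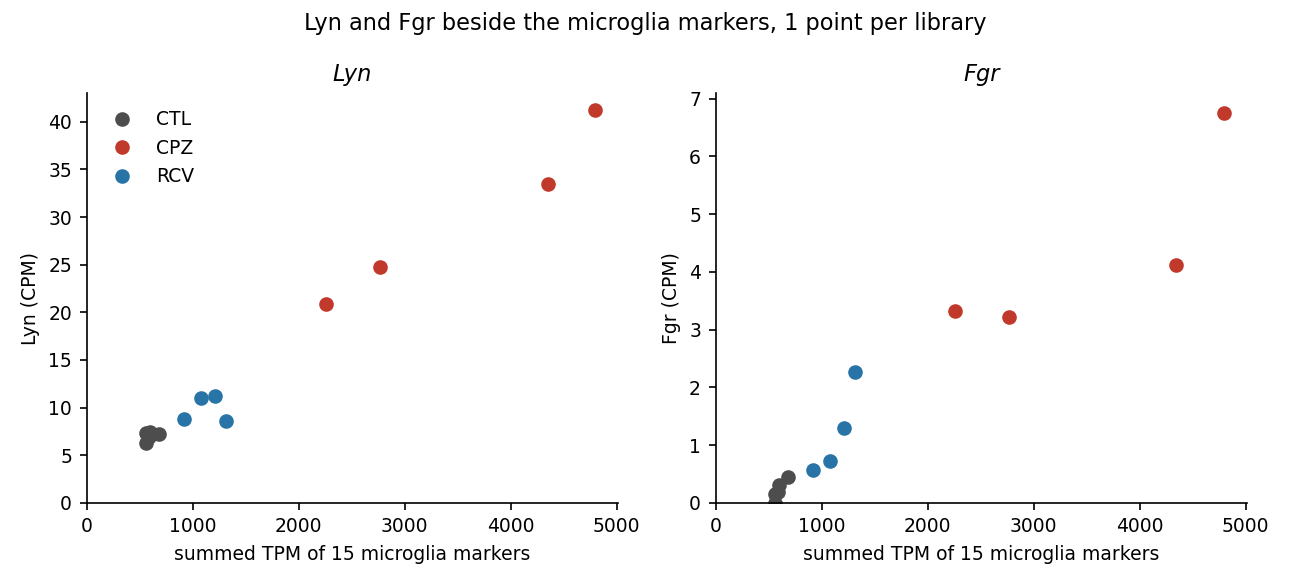
CPM of Lyn (left) and Fgr (right) on the y axes against the summed TPM of 15 microglia markers on the x axis, 1 point per library, coloured by group. The 4 CPZ libraries lie apart at marker sums of 2260 to 4800 TPM, and the CTL and RCV libraries lie between 557 and 1317 TPM.

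Markers of other blood cells that make Lyn, Fgr or Lck were counted in the same libraries. Of the T cell markers, Cd3e, Cd3d, Cd3g, Cd2 and Cd8a had at most 2 counts in any library and Trac at most 8. Cd5 had 3 to 6 counts in CPZ, 0 to 2 in CTL and 0 to 1 in RCV, while Thy1, which neurons also make, had 2324 to 4418 counts. Of the B cell markers, Ms4a1 had at most 1 count and Cd79a at most 2. Cd79b had 2 to 11 counts in CPZ, 0 to 2 in CTL and 0 to 3 in RCV, and Pax5 had up to 32 counts in RCV and at most 2 in the other groups. Ighm, the only B cell marker that passed the filter, had 76 to 173 counts in CTL, 223 to 318 in CPZ and 53 to 161 in RCV. Its log2 fold change between CPZ and CTL was 0.87 (adjusted p = 0.104 by edgeR), which was not called, but 1 gene of this list was called under 4 of the 23 alternative settings, DESeq2 and limma-voom among them.

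Of the neutrophil markers, Ly6g and Camp were at 0 in 12 of 13 libraries. S100a8 had 0 to 25 counts in CTL, 0 to 3 in CPZ and 1 to 35 in RCV, S100a9 had 0 to 37, 0 to 2 and 1 to 23, and Ngp reached 27 counts in RCV and was at 0 in CPZ. Mmp9 had 4 to 20 counts over all libraries. Csf3r, a receptor that microglia also carry, had 30 to 50 counts in CTL, 169 to 310 in CPZ and 56 to 93 in RCV. Csf3r was called higher in CPZ than in CTL (log2 fold change 2.44, adjusted p = 7.28e-07 by edgeR). It was also called higher in RCV than in CTL (1.02, adjusted p = 0.0479 by edgeR), a call lost under 17 of the 23 alternative settings. Of the monocyte markers, Ccr2 had at most 5.32 counts and Ly6c2 at most 8.44. Of the 2 that passed the filter, Itgal was called higher in CPZ than in CTL and Nr4a1 was not. Itgal had 1 to 12 counts in CTL, 27 to 41 in CPZ and 3 to 13 in RCV. With at least 10 counts required in every library, Itgal was removed and 0 genes of this list were called. The part of these cells in the results was not tested.

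The genes whose course over the 13 libraries was most like that of Lyn were Pycard, AI506816 and Aif1, out of 14143 candidates. Their root mean square difference from Lyn was 0.14, 0.15 and 0.17 on the log2-CPM scale, with each gene centred on its CTL mean. Pycard encodes the inflammasome adaptor ASC, and Aif1 encodes IBA1, the usual stain for microglia and also one of the 15 markers. Their log2 fold changes between CPZ and CTL were 2.28 for Pycard, 2.07 for AI506816 and 2.19 for Aif1. The genes most like Fgr were Naip2, an inflammasome sensor, Csf2rb, a chain shared by cytokine receptors, and Tlr2, a pattern recognition receptor. They lay farther from it, at 0.29, 0.34 and 0.36.

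Among other relatives of the family, Blk, Frk, Ptk6 and Srms had mean levels of at most 0.46 TPM in each group.

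Fyn was the most abundant member in each group, at 82.8 ± 1.9 TPM in CTL (SD, n = 5), 88.3 ± 1.3 in CPZ (SD, n = 4) and 88.7 ± 7.1 in RCV (SD, n = 4). The TPM of the CPZ libraries (87.2 to 90.1) lay above that of the CTL libraries (81.0 to 85.4), whereas the CPM of both groups overlapped. Between CPZ and CTL the log2 fold change from counts was 0.059 ± 0.057 (SE, adjusted p = 0.627), and the 95% interval of the fold was 0.958 to 1.13. Against RCV, the interval of the fold was 0.895 to 1.07. In the comparison of CPZ with CTL, the markers of mature oligodendrocytes had a median log2 fold change of -1.51.

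Src stood at 70.2 ± 9.7 TPM in CTL, 67.7 ± 7.6 in CPZ and 72.3 ± 8.0 in RCV. Its fold between CPZ and CTL was 0.935, with a 95% interval of 0.820 to 1.07 (adjusted p = 0.607). Yes1, a broadly expressed kinase, stood at 8.88 ± 1.22, 7.64 ± 0.90 and 7.46 ± 1.08 TPM. Its fold between CPZ and CTL was 0.852, with an interval of 0.700 to 1.04 (adjusted p = 0.346), so that neither no change nor a fall within these bounds can be set aside.

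Csk, the inhibitor, stood at 36.8 ± 5.4 TPM in CTL, 34.6 ± 5.1 in CPZ and 35.6 ± 7.1 in RCV. On the count scale, its log2 fold changes were 0.057 between CPZ and CTL, 0.050 between CPZ and RCV and 0.0068 between RCV and CTL, and its groups overlapped in each. On the TPM scale, the sign of all 3 values turned, to -0.087, -0.031 and -0.055 with a pseudocount of 1. Both sets of values are small beside the spread between libraries, and neither scale gave a call.

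The ratio of each kinase to Csk within a library does not depend on how libraries are scaled. The log2 ratio of Lyn to Csk in TPM was -3.06 ± 0.14 in CTL (SD, n = 5), -0.95 ± 0.65 in CPZ (SD, n = 4) and -2.56 ± 0.44 in RCV (SD, n = 4). The difference between CPZ and CTL was 2.10, with p = 0.0159 by an exact two-sided permutation test, and that between CPZ and RCV was 1.61, with an exact permutation p = 0.0286. Between RCV and CTL the difference was 0.50, with an exact permutation p = 0.0159. All 3 are the smallest p these group sizes allow. Adjusted over the 18 ratios tested, p was 0.0816 by the exact permutation test for each of these, so none passed the correction. With these group sizes, a ratio could pass only if several others also reached the smallest possible p. No conclusion is therefore drawn from the failure to pass. For Fgr, whose level in CTL was near 0, the exact permutation p was 0.0159, 0.0286 and 0.0317 in the 3 comparisons and 0.0816 adjusted for each. The differences for Src, Fyn and Yes1 lay between -0.19 and 0.18 in the 3 comparisons, and their adjusted permutation p between 0.190 and 0.914.

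Levels per length can be set side by side between members. In CTL the order by mean TPM was Fyn, Src, Csk, Yes1, Lyn, Lck and Fgr, where the ranges of Fyn and Src and those of Lyn and Lck overlapped. In CPZ the order was Fyn, Src, Csk, Lyn, Yes1, Fgr and Lck, with no overlap between neighbours, so Lyn stood above Yes1 and Fgr above Lck in all 4 libraries. In RCV the order of CTL was back, and Yes1 stood above Lyn in 3 of 4 libraries.

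Of the summed TPM of the 6 kinases, Lyn made up 2.60% ± 0.32 in CTL (SD, n = 5), 9.75% ± 2.49 in CPZ (SD, n = 4) and 3.36% ± 0.66 in RCV (SD, n = 4). Fgr made up 0.109% in CTL, 1.53% in CPZ and 0.434% in RCV. Fyn and Src together held the larger part in all groups, with mean shares of 49.0% and 41.2% in CTL, 47.6% and 36.3% in CPZ, and 49.5% and 40.3% in RCV. The sum itself was 169 ± 11 TPM in CTL, 186 ± 13 in CPZ and 179 ± 15 in RCV. It holds only the 6 kinases among the members and leaves out the other kinases of the family.

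**Figure D4:**
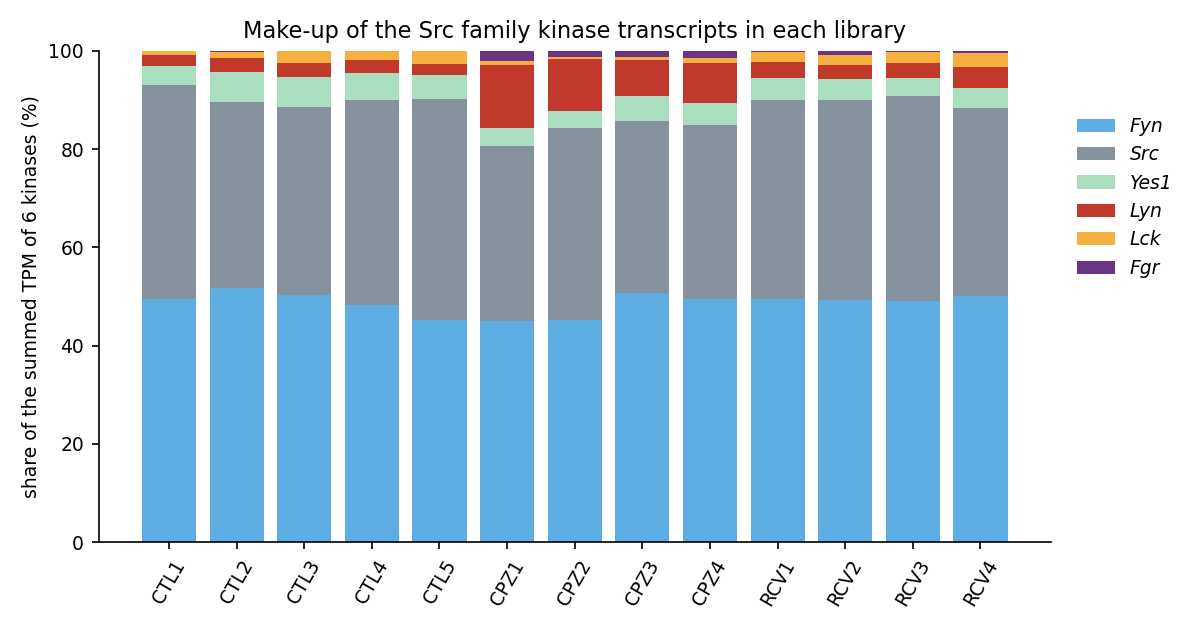
Share of each kinase in the summed TPM of the 6 kinases among the members (y axis, percent) in each of the 13 libraries, stacked. Other kinases of the family are not part of this sum. Lyn takes 7.36% to 12.9% in the CPZ libraries, 2.20% to 2.98% in CTL and 2.85% to 4.29% in RCV, and Fyn and Src fill most of each bar.

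Lck is the kinase bound to the CD4 and CD8 co-receptors of T cells. It had 4, 6, 7, 13 and 9 counts in CTL replicates 1 to 5. It had 9, 6, 7 and 7 counts in CPZ and 12, 11, 11 and 6 counts in RCV. On this scale the log2 fold change was -0.32 ± 0.37 between CPZ and CTL (SE, adjusted p = 0.701) and -0.84 ± 0.38 between CPZ and RCV (SE, adjusted p = 0.235), and neither was called. The CPM of CPZ (0.727 to 1.292) and RCV (1.298 to 2.11) did not overlap, but they nearly touched. The gap lay between 9 counts in CPZ replicate 1 and 6 counts in RCV replicate 4, which is a smaller library. Lck passed the filter on low counts only through CTL and RCV libraries in which it was higher.

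In TPM, Lck had 1.55, 1.75, 4.01, 3.26 and 4.64 in CTL, 1.42, 0.760, 1.13 and 1.84 in CPZ, and 3.83, 4.02, 4.22 and 4.48 in RCV. With limma on log2(TPM + 1), the difference between CPZ and RCV was -1.19 with an adjusted p of 0.0205 by limma, which was called, so the call for Lck depends on the unit. The log2 ratio of Lck to Csk in TPM was -4.80 ± 0.47 in CPZ and -3.08 ± 0.40 in RCV (SD), with an exact permutation p = 0.0286, adjusted to 0.0816. For Lck, the number of counts per TPM was on average higher in CPZ than in CTL and RCV. Relative to the median gene of the same library, the log2 of this number was -1.59 ± 0.48 in CTL (SD, n = 5), -0.67 ± 0.47 in CPZ (SD, n = 4) and -1.56 ± 0.33 in RCV (SD, n = 4). For Lyn it was 0.41, 0.41 and 0.44. The Lck values ran from -2.18 to -0.97 in CTL, from -1.37 to -0.35 in CPZ and from -2.05 to -1.31 in RCV. These ranges overlapped, and the difference between the groups was not tested. Lck had at most 13 counts per library, and the 95% interval of its fold between CPZ and CTL, 0.464 to 1.39, is wide.

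The partners of Lck in T cells were scarcely detected. Of 14 genes of the T cell receptor module, 2 passed the filter, Cd4 and Zap70, and neither was called in any of the 3 comparisons. Their log2 fold changes between CPZ and CTL were 0.13 ± 0.85 (SE) for Cd4, which is not confined to T cells, and 0.11 ± 0.31 (SE) for Zap70.

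Upstream of Lyn and Fgr stand receptors of myeloid cells. Of 20 genes for receptors and adaptors linked to ITAM or ITIM signalling, 15 passed the filter. Of these, 14 passed the test as higher in CPZ against CTL and none as lower. Several of them had few counts in CTL and passed the filter through the groups where they were high, Fcgr4 (0 to 1 counts in CTL, 12 to 21 in CPZ), Cd22 (0 to 2 and 34 to 53), Lilrb4a and Clec7a among them, so the count of 14 is not independent of the filter. With at least 10 counts required in every library, 7 genes were called. Fcgr1, a high-affinity receptor for immunoglobulin G, rose by 3.00 ± 0.22 (SE), and Clec7a, the beta-glucan receptor, by 6.60 ± 0.41 (SE), from a base of 2 to 4 counts in CTL. Cd300c2 rose by 2.79 ± 0.23 (SE) and Cd84 by 3.53 ± 0.27 (SE). Between CPZ and RCV, 14 of 15 were again called higher. Between RCV and CTL, 5 of 15 were called higher, among them Clec7a at 4.85 ± 0.48 (SE, adjusted p = 0.000613), Cd84 at 1.62 ± 0.31 (SE, adjusted p = 0.0429) and Cd300c2 at 1.32 ± 0.26 (SE, adjusted p = 0.0407), in a comparison where neither Lyn nor Fgr passed. This count was 9 without CPZ replicate 1, 11 without CPZ replicate 3 and 3 without CPZ replicate 2, any of the CTL libraries or RCV replicate 1, 2 or 4. The difference between these genes and the kinases was not tested.

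Downstream, of 20 genes around the kinase Syk, which binds phosphorylated ITAMs, 16 were higher in CPZ than in CTL and none lower, with a median log2 fold change of 1.78. Pik3cg, a lipid kinase subunit, rose by 2.23 ± 0.20 (SE), the Tec family kinase Btk by 2.44 ± 0.26 (SE), the adaptor Fyb by 2.71 ± 0.28 (SE), and Hcls1, a substrate of Lyn and Syk that binds actin, by 2.21 ± 0.25 (SE). Btk had 6 to 8 counts in CTL and 30 to 65 in CPZ and passed the filter through the groups where it was high. The count of 16 is therefore not independent of the filter. With at least 10 counts required in every library, 13 genes were called. Between CPZ and RCV, 14 of the 20 were higher. Between RCV and CTL, 0 of the 20 were called by edgeR, with 10 at an unadjusted p under 0.05 and a median of 0.61.

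**Figure D5:**
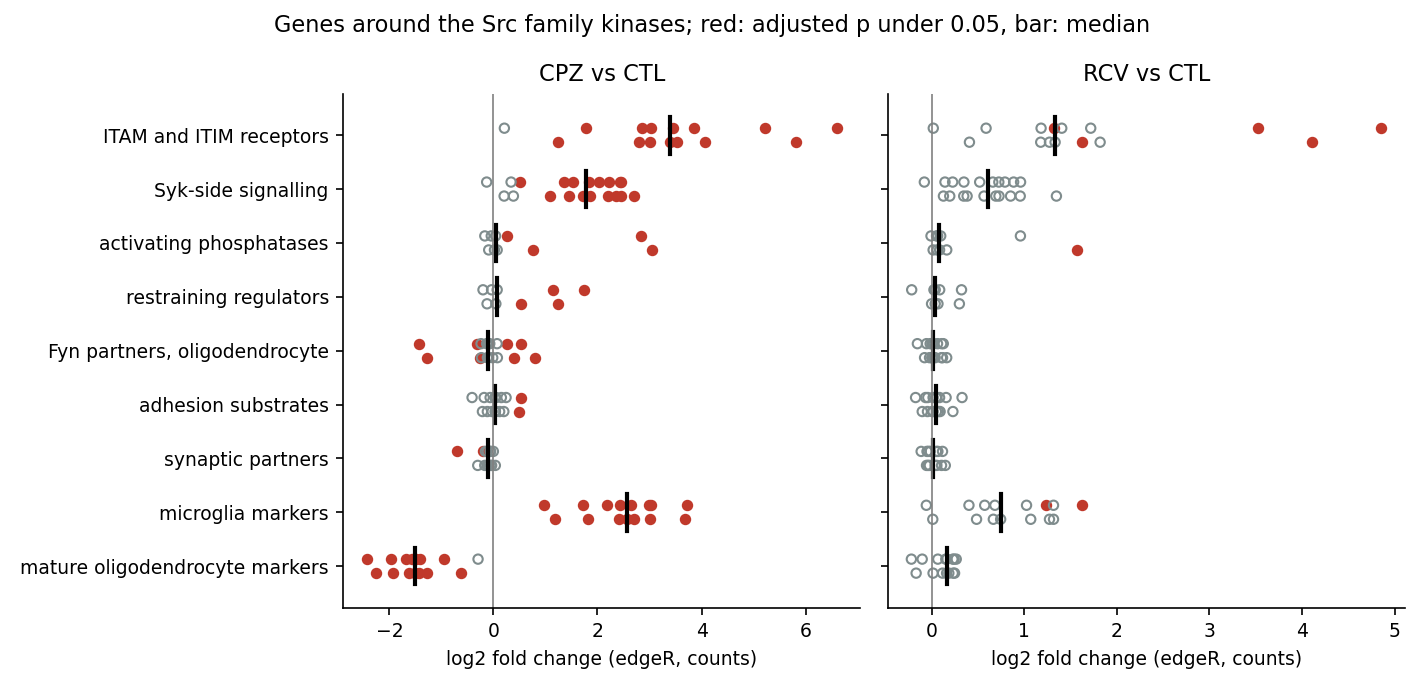
Log2 fold change (x axis, from counts) of each tested gene in 7 lists around the kinases and in 2 marker lists, for CPZ vs CTL (left) and RCV vs CTL (right), with red points for an adjusted p under 0.05 and a black bar at the median. The Syk list stands at a median of 1.78 on the left, and the lists of restraining regulators, adhesion substrates and synaptic partners stand near 0. The receptor list and the Syk list hold genes that passed the filter only through the groups where they are high. On the list of restraining regulators, Dok1 had 3 to 13 counts in CTL and 22 to 30 in CPZ.

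Among 10 genes that open the kinases or serve them, 4 were higher in CPZ than in CTL and none lower, with a median of 0.056. Ptprc, which encodes CD45, rose by 3.05 ± 0.20 (SE), and Ptpn6, which encodes the phosphatase SHP-1 of blood cells, by 2.84 ± 0.26 (SE). SHP-1 is also known to counteract ITAM signals. The adaptor Skap2 rose by 0.77 ± 0.14 (SE) and the widely expressed phosphatase Ptpn1 by 0.26 ± 0.07 (SE). Ptprc was the only one of the 10 called between RCV and CTL, at 1.57 ± 0.22 (SE, adjusted p = 0.00511).

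On the restraining side, 9 of 13 genes passed the filter and 4 of these were higher in CPZ than in CTL, while Csk was not. Pag1, the membrane anchor of Csk, rose by 0.53 ± 0.09 (SE). Socs3, a feedback inhibitor of cytokine receptors, rose by 1.75 ± 0.28 (SE), the adaptor Sla, which lowers receptor levels, by 1.14 ± 0.24 (SE), and the docking protein Dok1 by 1.24 ± 0.30 (SE). None of the 9 was called between RCV and CTL, and none had an unadjusted p under 0.05 there by edgeR. The median of this list between CPZ and CTL was 0.072. Dok1 had 3 to 13 counts in CTL and 22 to 30 in CPZ. With at least 10 counts required in every library, 3 genes of this list were called between CPZ and CTL. Over the alternative settings, 2 to 4 were.

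Of 18 genes linked to Fyn in oligodendrocytes and axons, 4 were higher and 4 lower in CPZ than in CTL, with a median of -0.097. Itga6 and Itgb1, subunits of the laminin receptor that acts with Fyn, rose by 0.80 ± 0.09 (SE) and 0.40 ± 0.08 (SE), and Hnrnpf, an RNA-binding protein, by 0.52 ± 0.08 (SE). Mobp, a myelin gene, had a log2 fold change of -1.43 ± 0.24 (SE), and Mapt, which encodes tau, -0.32 ± 0.05 (SE). Mobp and Mag, another of the lower genes, are also markers of mature oligodendrocytes. Of these 8 genes, Ncam1, a neural adhesion molecule, was nearest to the threshold (adjusted p = 0.0497 by edgeR), and the list had 6 or 7 calls under 20 of the 23 alternative settings. None of the 18 was called between RCV and CTL.

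Of 17 substrates and adaptors of focal adhesions, 2 were higher in CPZ than in CTL, the transcription factor Stat3 by 0.50 ± 0.08 (SE) and the adaptor Shc1 by 0.54 ± 0.11 (SE), and the median was 0.038. This share is near the 7.66% of all genes that were called higher. Of 14 partners at synapses, 2 were lower, Efnb3, an ephrin, at -0.69 ± 0.10 (SE) and Dlg4, which encodes the scaffold PSD-95, at -0.21 ± 0.06 (SE), and this count was 1 without CTL replicate 1, 2, 4 or 5, CPZ replicate 1, 2 or 3, or RCV replicate 1 or 4. None of 10 neuron markers was called in this comparison, and none had an unadjusted p under 0.05 by edgeR.

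In the mouse genome build GRCm38 (mm10), Lyn lies on chr4:3678115-3813122 (plus strand), Fgr on chr4:132974095-133001910 (plus strand), Lck on chr4:129548344-129573641 (minus strand) and Csk on chr9:57626646-57653631 (minus strand). Fyn lies on chr10:39368855-39565381, Src on chr2:157418444-157471862 and Yes1 on chr5:32611171-32687057, all on the plus strand. Several annotated transcripts lie across members on the other strand, which matters because it is not stated whether the counting used strand. The largest of these among the values used here were 101 counts over all libraries for Gm10461 at the start of Yes1 and 78 counts for 9430025C20Rik within Lyn.

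RefSeq promoter windows of build GRCm38.p6, from 250 bases before to 50 after a start site, were at hand as 8 windows for 6 members, all but Lyn. The letters GAGGAA, the core of the box bound by the myeloid factor PU.1, or their reverse complement TTCCTC were in 5 of the 8 windows, and in 28.3% of all 32851 windows of this length. The 30 bases around the first match are shown because Fgr and the members that were not called can be compared in them, in the direction of the gene and with the match in capitals.
Fgr, chr4:132974114-132974143, match 31 bases after the start site: gtccgagacggcTTCCTCctccctccccag
Src, chr2:157424173-157424202, match 108 bases before it: ccgggtccgcgcTTCCTCctttctccggct
Lck, chr4:129573798-129573827, match 174 bases before it: tcacacacagccTTCCTCcctaagtgcctc
Csk, chr9:57653749-57653778, match 135 bases before it: ccctgccactcgGAGGAAtcactaagcggc
Csk, second window, chr9:57645819-57645848, match 183 bases before it: aagcttcgcctaGAGGAAgctgagaggttg
The windows of Yes1 and Fyn and the second window of Lck held no match. The letters were found beside Fgr, which rose, and beside Src, Lck and Csk, which were not called on the count scale.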

How the data were processed

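The authors prepared mRNA libraries with the Kapa mRNA HyperPrep Kit and sequenced them on a HiSeq2500. Their processing notes name STAR, RSEM and build mm10. What the authors deposited were estimated counts of each gene without any scaling, and TPM values, which are scaled by both length and depth. The 92 spike-in identifiers held 0 counts.

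Estimated counts were rounded, filtered by filterByExpr and scaled by TMM. The test was edgeR's (4.0.16) robust quasi-likelihood F test in 1 fit of 13 libraries, with Benjamini-Hochberg adjustment over all 14985 genes and a threshold of 0.05. Intervals of 95% used the t distribution. Log2-CPM used a prior count of 2, and ratios to Csk used log2(TPM + 0.01) with exact two-sided permutation tests. Scripts were tested on simulated counts. The members, the 9 pathway lists and the 10 marker lists were chosen with earlier results of these data known. One gene of the pathway lists is also a microglia marker and 2 are also oligodendrocyte markers. All members are named, and from each list up to 4 called genes with the smallest p between CPZ and CTL and up to 2 in the other direction, or the 2 highest where none was called. Marker genes are named where they stand beside a result. Some genes of these lists are not reported here.

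Alternatives were DESeq2 1.42.0, limma-voom (limma 3.58.1), RLE size factors, other filters, limma on log2(TPM + 1) or log2(TPM + 0.1), only the groups compared, a replicate block and each library left out. Depth was 4605100 to 8197289 counts per library, so genes with few counts, such as Fgr and Lck, are known less precisely. Between libraries of the same group, the chi-square per gene was 4.23 to 16.3, where counting error alone gives 1, so none was a copy. The labels and the study's methods give 4 CTL, 3 CPZ and 3 RCV mice, and the files hold 5, 4 and 4 libraries, the numbers of samples that a legend of the study gives, all used here. The labels do not name the mouse of a library, so p-values measure the spread between these libraries. Where titles start with "Veh", the treatment label, which gives recovery, set the group.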

Additional observations from a re-analysis of the deposited data

How the results depend on the processing

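The calls of Lyn in both comparisons with CPZ, and of Fgr against CTL where it could be tested, held under every alternative run, and no member was called between RCV and CTL under any. With at least 10 counts in every library, Fgr and Lck were removed, and 1 member was called between CPZ and CTL and 1 between CPZ and RCV. With each library left out, 1 to 2 members were called between CPZ and RCV. For Fgr this was lost without CPZ replicate 1 or RCV replicate 1, with log2 fold changes of 1.54 to 2.33 over the libraries left out, and with limma on log2(TPM + 0.1), where the adjusted p was 0.123 by limma. Lck passed between CPZ and RCV with limma on TPM, at -1.19 (pseudocount 1, adjusted p = 0.0205, and 0.0490 without a filter) and -1.67 (pseudocount 0.1, adjusted p = 0.0244). The cause was not tested.

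The replicate numbers did not pair the libraries, with correlations of -0.20 to 0.14 over 12 pairs. With a replicate block, 2 members were called in each comparison with CPZ and 0 between RCV and CTL, and the log2 fold change of Csk between RCV and CTL was -0.0087.

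The other turned signs were of values near 0 that were not called. With limma on TPM (pseudocounts 1 and 0.1), Csk had -0.087 and -0.089 between CPZ and CTL, -0.031 and -0.032 between CPZ and RCV, and -0.055 and -0.057 between RCV and CTL, and Yes1 had 0.033 and 0.038 between CPZ and RCV, with the same values for a pseudocount of 1 without a filter. With no filter on counts, Src had -0.0033 and Csk -0.0034 between RCV and CTL. With libraries left out, Csk ranged from -0.0032 to 0.14, from -0.010 to 0.10 and from -0.048 to 0.086 in the 3 comparisons (CPZ vs CTL, CPZ vs RCV, RCV vs CTL), Yes1 from -0.12 to 0.043 between CPZ and RCV, and Src from -0.051 to 0.069 between RCV and CTL. In log2-CPM in place of TPM, the ratio to Csk was -0.15 for Src and -0.0030 for Fyn between CPZ and CTL, -0.081 for Fyn and -0.083 for Yes1 between CPZ and RCV, and -0.0061 for Src between RCV and CTL. With libraries left out, the ratio of Src ranged from -0.066 to 0.16 between CPZ and CTL and from -0.17 to 0.051 between CPZ and RCV, and that of Fyn from -0.044 to 0.13 between CPZ and RCV.

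Over all genes, 56 were called between RCV and CTL, against 125 with DESeq2, 16 with limma-voom, 20 with at least 10 counts in every library, 16 with limma on TPM without a filter, and 21 to 87 with a library left out. Between CPZ and RCV, 1050 were called, against 584, 503 and 477 with limma on TPM and 632 to 1170 with a library left out, and between CPZ and CTL 1522, against 993 with limma on TPM without a filter. Over the alternatives, the receptor list had 7 to 16 calls between CPZ and CTL and 0 to 11 between RCV and CTL, the Syk list 12 to 17 between CPZ and CTL and 6 to 15 between CPZ and RCV, and the restraining list 0 to 3 between CPZ and RCV.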
